A study of Mus musculus with 23 samples.

Results

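Among the genes that were higher 96 h after Ago2 expression was switched off in mouse embryonic stem (ES) cells, 35 kept at least 0.8 of their level when Ago2 expression was switched back on. They were chosen on exon signal, the mean number of normalised reads of a group. A gene belonged if its mean over the 4 times of the loss experiment and its mean over the 3 doses of the rescue were both at least 50, if its 96 h over 0 h ratio was at least 2, and if its ratio of 2.5 µg/mL doxycycline over none in the rescue was at least 0.8, all on means plus 1. Of 18412 genes in the tables, 11520 passed both level floors, 832 of these were at least 2-fold higher at 96 h, and 35 also kept 0.8 of their level with doxycycline. The 797 others that were 2-fold higher fell short of 0.8 and are called the other rises here. The choice used the 96 h, 0 h, 2.5 µg/mL and undosed means, so those contrasts are described below and not tested.

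Argonaute proteins carry microRNAs, which pair through their seed with sites in the 3′ untranslated regions (UTRs) of mRNAs and lower the stability and translation of those mRNAs. Mouse ES cells hold large amounts of the miR-290 family and of the miR-17 family, and targets of these families are known to be held down by them. Several of the 35 genes belong to groups known to answer quickly to stimuli: immediate early genes, which growth factors and stress switch on within minutes, and targets of hypoxia-inducible factor (HIF), which is stabilised when oxygen is short.

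Polyadenylated RNA was sequenced from 23 samples in 11 groups of 3 series. The time course used TT-FHAgo2 cells, a Blm-/-;Ago1,2,3,4-/- line with CreERT2 and a doxycycline-inducible Ago2. They were given 2.5 µg/mL doxycycline for 48 h, a dose described as giving Ago2 at its level in wild type, and harvested 0, 24, 48 or 96 h after it was removed (n = 2 each). The rescue used the same cells, but these had been propagated at 0.1 µg/mL, spent 96 h without doxycycline (n = 2) and were then given 0.1 or 2.5 µg/mL for 48 h (n = 2 each). The undosed cells were harvested 48 h before the dosed ones, so dose cannot be told apart from time in culture. The genetic series held 2 clones, C62 and C86, of genotype Blm-/-;Ago1,2,3,4-/-;CreERT2 without any Argonaute (n = 2), the line E7, which adds a floxed human Ago2 to that genotype (n = 3), the line B9, Blm-/-;Ago1,3,4-/-, which keeps mouse Ago2 (n = 2), and wild-type AB2.2 (n = 2). Blm is the RecQ helicase gene of Bloom syndrome, and every mutant line lacks it. E7, B9 and TT-FHAgo2 are each 1 line, and nothing in the labels says that their replicates are separate derivations. The clone group holds 1 library of C62 and 1 of C86, so differences between clones cannot be told apart there from differences between libraries. All p-values measure the spread between these samples.

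Exon reads per library were 32.9 M to 62.4 M in the time course, 24.7 M to 53.8 M in the rescue and 13.5 M to 53.7 M in the genetic series. Libraries of 1 group differed by a median of 0.0733 to 0.0955 on the log2 scale in the time course and of 0.305 to 0.570 in the genetic series. Changes in the genetic series were therefore measured less precisely. The value of 0.570 is that of the clones, and for E7 only libraries 1 and 2 were compared. This spread was not worked out for the rescue. Exon reads over the whole Ago2 gene did not follow doxycycline and check no label: they were 11963, 11420, 11283 and 10794 at 0, 24, 48 and 96 h. Ago1, deleted in every mutant line, had no read in any mutant library, against 3514 and 4693 in wild type. Reads of Ago3, Ago4 and Blm were still present in mutant lines (Blm had 2042 and 1095 in the clones, against 4132 and 5483 in wild type), and whether they lie outside the disrupted parts was not tested. Lefty1, a Nodal antagonist, and Lin28a, an RNA-binding protein that blocks let-7, did follow the labels. Lefty1 had means of 4150, 13145, 29631 and 27689 over the 4 times, and 13521, 5933 and 1823 over the 3 doses. Lin28a had 31189, 22984, 12648 and 3609 reads at 0, 24, 48 and 96 h, and 2430, 17706 and 25057 at 0, 0.1 and 2.5 µg/mL. All 10 ES cell markers looked at, Pou5f1 and Nanog among them, had at least 10 reads in each group.

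**Figure D1:**
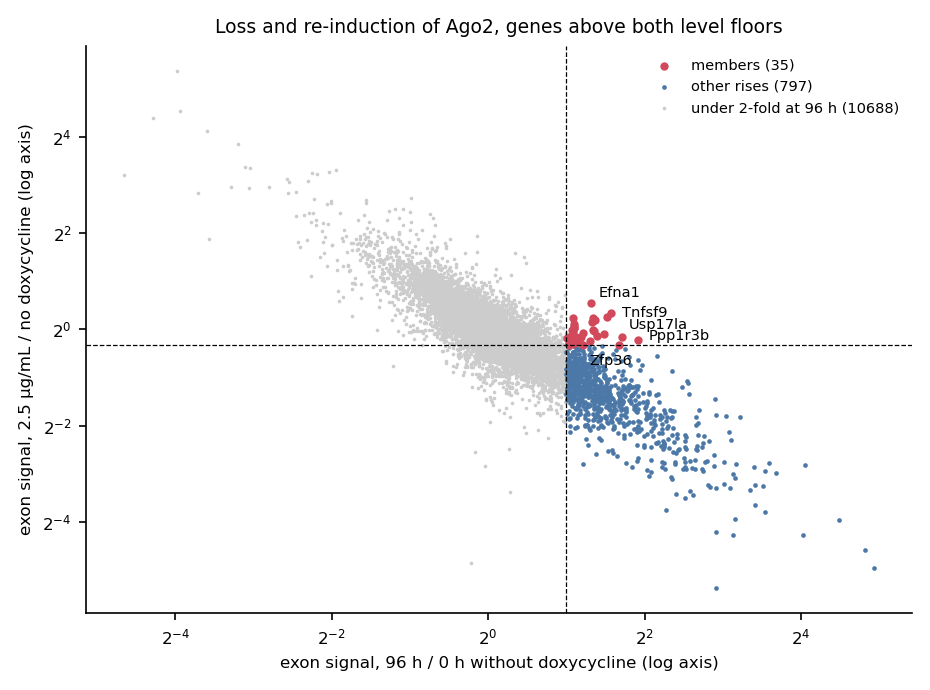
Exon ratio of 96 h over 0 h without doxycycline (x) against the exon ratio of 2.5 µg/mL over no doxycycline (y), both on log axes, for 11520 genes above both level floors; dashed lines mark ratios of 2 and 0.8. The 35 members (red) lie in the corner to the right of one dashed line and above the other, and Ppp1r3b, with a ratio of 3.77, is farthest to the right.

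The members' differences at 96 h were moderate. Their 96 h over 0 h ratio had a median of 2.23 and a highest value of 3.77, against a median of 2.61 and a highest value of 30.7 in the other rises. Of all genes above the floors, 7.22% reached a ratio of 2, and 72.2% kept 0.8 with 2.5 µg/mL doxycycline. The members nearest inside the rise threshold were Bcl2l14 (2.01), Slc35c1 (2.04) and Scd1 (2.05), and the genes nearest outside it were Gprc5c (1.996), Gm8994 (1.97) and Slc25a14 (1.97). Inside the threshold of 0.8 lay Klk10 (0.802), Zfp36 (0.804) and Ttyh2 (0.805), and outside it Sp6 (0.792), Gpx2 (0.790) and Inafm2 (0.786). In all 35 members both 96 h libraries were above both 0 h libraries. The rule used these same libraries, so this follows largely from the choice of the genes. It was not counted over other genes. When each of 8 libraries was left out in turn, 16 of the 35 met the rule every time; Zfp36, Usp17la, Aoc3, Ndufa4l2 and Dusp1 are among those that did not, while Fos, Ier3, Egln3, Ppp1r3b, Tnfsf9, Efna1, Spi1 and Zscan4f did.

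Of the members, 4 were immediate early genes, of 18 such genes above the floors in a list of 22. Zfp36 encodes tristetraprolin, which binds AU-rich elements and speeds the decay of cytokine and immediate early mRNAs; the gene lies at chr7:28376784-28379228 (GRCm38.p6, the assembly of mm10). Pairs of values joined by a slash are the 2 libraries of a group. Zfp36 had 659/699 reads at 0 h, 1074/967 at 24 h, 1516/1501 at 48 h and 2040/2288 at 96 h. Each time lay above the one before it with no overlap. From 24 h to 48 h Zfp36 rose by 0.57 on the log2 scale (SE 0.08, limma adjusted p = 5.46e-06). These 2 groups stand in neither ratio of the rule but enter its level floor. A gene picked as higher at 96 h is more likely to rise at this step, here and in the genes below. In the rescue Zfp36 had 1037/1194 reads without doxycycline, 1188/1117 at 0.1 µg/mL and 915/878 at 2.5 µg/mL. Both libraries of the highest dose lay below the undosed ones.

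Dusp1, a phosphatase that switches off MAP kinases, followed the same course. It had 1539/1646 reads at 0 h, 2276/2340 at 24 h, 2833/2987 at 48 h and 3102/3564 at 96 h. The step to 48 h was called (log2 change 0.33, SE 0.07, limma adjusted p = 0.000270). Fos, a subunit of the transcription factor AP-1, had 280/248 reads at 0 h, 318/355 at 24 h, 467/449 at 48 h and 568/638 at 96 h, and was also called between 24 h and 48 h (0.45, SE 0.12, limma adjusted p = 0.00562). Ier3, which modulates apoptosis and Erk signalling, took another course: its libraries had 398/391 reads at 0 h, 1526/1491 at 24 h, 1172/1165 at 48 h and 888/1130 at 96 h. Ier3 peaked at 24 h and fell from 24 h to 48 h (-0.37, SE 0.09, limma adjusted p = 0.00340).

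The other immediate early genes did not form 1 pattern with these members. Of all 18 above the floors, members included, 8 were at least 2-fold higher at 96 h and 2 at least 2-fold lower. The 8 include the 4 members, which were 2-fold higher by the rule. The median ratio of the 18 was 1.84, against 0.995 over all genes above the floors. Jun and Fosb were among the other rises: Jun had 769, 410 and 266 reads at 0, 0.1 and 2.5 µg/mL, whereas Fos had 286, 284 and 255. Of 21 genes of the list tested between 48 h and 24 h, 11 rose and 2 fell, with a median log2 change of 0.33. Zfp36, Dusp1 and Fos are among the 11, and Ier3 is among the 2. Over all genes, 20.2% rose and 18.8% fell.

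The promoters of 3 of these members are shown because all 3 genes rose between 24 h and 48 h. Each runs from 250 bases before to 50 bases after the RefSeq start (GRCm38.p6), 5′ to 3′ on the strand of the gene: Zfp36 at chr7:28379179-28379478 (minus), Fos at chr12:85473640-85473939 (plus) and Dusp1 at chr17:26508423-26508722 (minus). Capitals mark matches to the motifs searched.
Zfp36: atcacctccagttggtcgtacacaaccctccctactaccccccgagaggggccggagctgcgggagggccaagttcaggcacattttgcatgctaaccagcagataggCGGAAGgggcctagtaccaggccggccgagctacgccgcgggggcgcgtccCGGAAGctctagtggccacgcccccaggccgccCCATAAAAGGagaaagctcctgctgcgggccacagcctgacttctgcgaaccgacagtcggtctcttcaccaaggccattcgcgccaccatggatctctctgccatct
Fos: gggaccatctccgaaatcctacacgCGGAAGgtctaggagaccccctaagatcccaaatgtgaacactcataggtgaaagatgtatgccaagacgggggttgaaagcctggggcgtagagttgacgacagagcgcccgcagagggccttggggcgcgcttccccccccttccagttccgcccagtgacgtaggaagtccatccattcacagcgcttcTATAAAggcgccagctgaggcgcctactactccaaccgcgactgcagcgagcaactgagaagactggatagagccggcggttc
Dusp1: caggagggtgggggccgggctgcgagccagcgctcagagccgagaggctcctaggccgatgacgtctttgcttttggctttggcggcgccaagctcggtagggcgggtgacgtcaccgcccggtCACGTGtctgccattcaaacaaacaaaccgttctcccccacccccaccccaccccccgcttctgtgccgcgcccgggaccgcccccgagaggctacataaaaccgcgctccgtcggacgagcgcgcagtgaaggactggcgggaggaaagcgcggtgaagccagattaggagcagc
Zfp36 holds a serum response CArG box at positions -58 to -49, with the first transcribed base counted as 0, and 2 Ets motifs, CGGAAG. Fos holds 1 Ets motif and the TATA box TATAAA at -33 to -28. Dusp1 holds the E-box CACGTG at -126 to -121, which overlaps ACGTG, the core of the hypoxia response element, on both strands. Of the 35 members, 23 had a promoter in the table. CGGAAG, searched on both strands, was in the promoters of 9 of these genes (39.1%), against 18.8% of all 27018 genes with a promoter. ACGTG was in 7 (30.4%, against 21.8%), TATAAA in 4 (17.4%, against 15.7%) and the AP-1 motif TGANTCA in 2 (8.70%, against 8.98%). The interferon response element, CACGTG and the CArG box were each in 1 (4.35%), against 3.99%, 8.09% and 1.81% of all genes. These matches describe the windows and are not binding sites.

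Egln3, Ndufa4l2, Ppp1r3b and Aoc3 were highest at 24 h, and they are described here with Scd1, Pnp2 and Lipo2, which were not. These 7 were put together by hand from their known roles in oxygen sensing and metabolism. Egln3, a HIF prolyl hydroxylase that is itself a HIF target (chr12:54178981-54203874), had 961/884 reads at 0 h, 2664/2717 at 24 h, 2079/2244 at 48 h and 2012/3163 at 96 h. It was already 2.91-fold up at 24 h, fell from there to 48 h (log2 change -0.32, SE 0.12, limma adjusted p = 0.0334), and its 96 h libraries lay far apart. Ndufa4l2, a mitochondrial protein induced by HIF that restrains respiration (chr10:127509274-127517154), had 43.5/65.7 reads at 0 h, 464/459 at 24 h, 318/338 at 48 h and 81.6/207 at 96 h. The 24 h ratio of Ndufa4l2, 8.32, was the highest of the members and also of all 11520 genes. The rescue libraries of Ndufa4l2 overlapped, with 41.4/114 reads without doxycycline, 90.5/291 at 0.1 µg/mL and 65.3/76.7 at 2.5 µg/mL.

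Ppp1r3b, which targets protein phosphatase 1 to glycogen, had 44.5/41.6 reads at 0 h, 227/320 at 24 h, 275/227 at 48 h and 130/199 at 96 h. It had the largest 96 h ratio of the set, 3.77, and was nonetheless lower at 96 h than at 24 h. Aoc3, a cell-surface amine oxidase, had 59.0/59.1 reads at 0 h, 339/288 at 24 h, 266/290 at 48 h and 89.4/252 at 96 h. Scd1, the stearoyl-CoA desaturase that makes monounsaturated fatty acids and the most abundant member, had 3420/3361 reads at 0 h, 7070/7901 at 24 h, 9153/8571 at 48 h and 6299/7611 at 96 h. Scd1 rose from 24 h to 48 h (0.24, SE 0.07, limma adjusted p = 0.00458). Pnp2, a purine nucleoside phosphorylase, and Lipo2, a lipase family member, were 2.57-fold and 2.32-fold higher at 96 h; both have close paralogs that can share reads.

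Over a list of 32 glycolysis and hypoxia genes above the floors, the median ratio was 1.42 at 24 h and 0.971 at 96 h, and 14 of the 32 were at least 1.5-fold higher at 24 h, against 7.92% of all genes above the floors. Between 48 h and 24 h, 2 of 35 tested genes of the list rose and 15 fell, with 20.2% of all genes rising and 18.8% falling. The only member among these glycolysis and hypoxia genes was Egln3. Its relative Egln1, the main HIF prolyl hydroxylase, had 1621, 3207, 3235 and 3044 reads at 0, 24, 48 and 96 h and stayed below the 2-fold threshold at 1.88. In Egln3, Ndufa4l2, Aoc3, Ppp1r3b and Ier3 the 96 h library 2 was above library 1, and Aoc3 and Ndufa4l2 were among the 9 members that no longer met the rule without it.

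Signalling members included ligands, a receptor-proximal regulator and a kinase. Tnfsf9, the ligand of the T cell co-stimulatory receptor 4-1BB (chr17:57105287-57107758), had 115/101 reads at 0 h, 156/192 at 24 h, 222/185 at 48 h and 334/312 at 96 h. With doxycycline back, Tnfsf9 had 111/107 reads at 0, 103/143 at 0.1 µg/mL and 142/137 at 2.5 µg/mL; the highest dose lay above the undosed libraries. Efna1, the ephrin ligand of EphA receptors, had 65.7/48.1 reads at 0 h, 189/172 at 24 h, 211/209 at 48 h and 123/162 at 96 h. Its ratio of 2.5 µg/mL over none, 1.45, was the highest of the set (63.0/53.9 reads undosed, 80.4/72.1 at 0.1 µg/mL, 90.2/80.7 at 2.5 µg/mL). Rgs16, which shortens G protein signals, peaked at 24 h with 289/224 reads, against 88.9/78.8 at 0 h. Nuak2, an AMPK-related kinase, had 580/585 reads at 0 h, 1141/1350 at 24 h, 1573/1530 at 48 h and 1282/1318 at 96 h, and rose between 24 h and 48 h (0.32, SE 0.08, limma adjusted p = 0.00320).

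**Figure D2:**
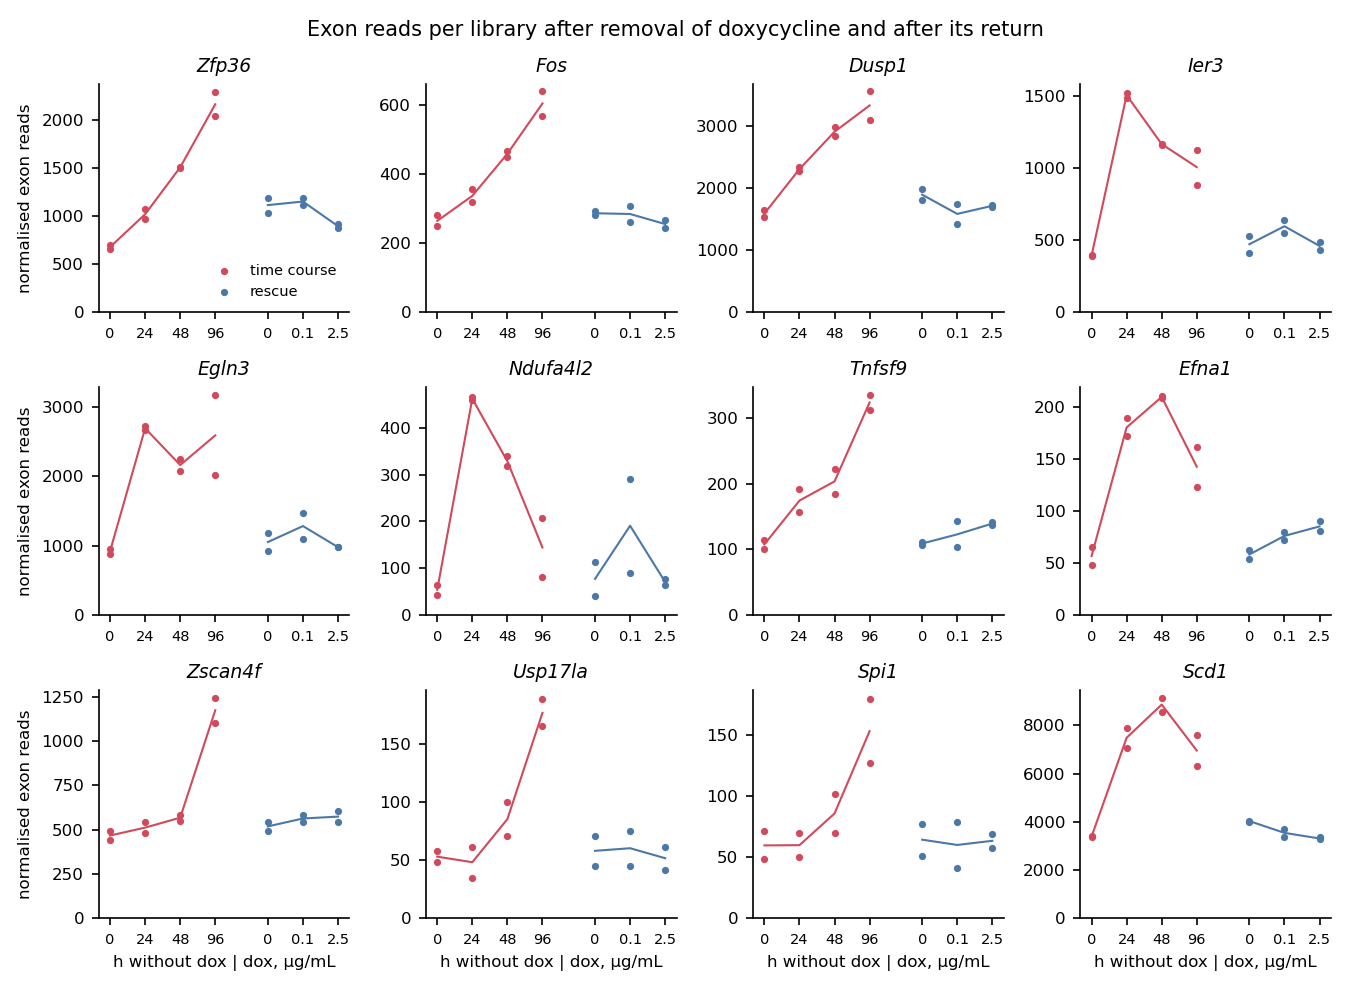
Normalised exon reads (y) of 12 members in each library (points) with group means (lines), by hours without doxycycline in the time course (red) and by dose in µg/mL in the rescue (blue). Ier3, Egln3 and Ndufa4l2 peak or level off at 24 h, Zscan4f and Usp17la are highest at 96 h, and all rescue points of Zfp36, Fos and Scd1 lie below their 96 h points. The 2 series were normalised apart.

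Zscan4f and Usp17la mark the 2-cell-like state, a rare state of cultured ES cells with a transcript set of the early embryo. Zscan4f, a zinc-finger protein of that state (chr7:11397915-11402318), had 445/490 reads at 0 h, 545/479 at 24 h, 550/586 at 48 h and 1246/1103 at 96 h. Usp17la, a deubiquitinase of a multigene family, had 58.0/48.1 reads at 0 h, 61.6/34.9 at 24 h, 70.7/99.9 at 48 h and 188/165 at 96 h, and was called between 24 h and 48 h (0.84, SE 0.28, limma adjusted p = 0.0206). Both were near their 0 h level for the first day and highest at 96 h. Zscan4b, Zscan4c, Zscan4d and Usp17lc stood just under the threshold, with 96 h ratios of 1.81, 1.91, 1.93 and 1.83, and reads of these near-identical copies may have been split among them. In the rescue Zscan4f had 491/546 reads undosed and 541/607 at 2.5 µg/mL, and Zscan4d had means of 421 and 579. Of 8 genes of this list above the floors, 2 were at least 2-fold higher at 96 h. These are Zscan4f and Usp17la themselves, which were chosen by that ratio. Bulk RNA does not tell more cells in the state from more RNA per cell.

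Immune and apoptosis members were few. Oas3, an interferon-inducible sensor of double-stranded RNA, had 206/203 reads at 0 h, 282/298 at 24 h, 368/357 at 48 h and 504/506 at 96 h, and rose from 24 h to 48 h (0.32, SE 0.13, limma adjusted p = 0.0475). No gene of a list of interferon-stimulated genes, in which Oas3 did not stand, was a member, although 10 of the 25 above the floors were at least 2-fold higher at 96 h; their median ratio with 2.5 µg/mL was 0.556. Spi1, the myeloid transcription factor PU.1, had 48.3/71.1 reads at 0 h, 49.9/69.9 at 24 h, 102/70.1 at 48 h and 180/127 at 96 h. Of 6 leukocyte markers, Ptprc, Adgre1 and Csf1r had under 10 reads in every group. The summed level of the 6 was 713, 479, 486 and 943 reads at 0, 24, 48 and 96 h and 560, 522 and 642 at 0, 0.1 and 2.5 µg/mL; its part in the level of Spi1 was not tested. Birc7, an inhibitor of apoptosis (chr2:180928609-180934010), had 72.5/46.0 reads at 0 h, 134/239 at 24 h, 279/278 at 48 h and 130/121 at 96 h. Bcl2l14, a Bcl2 family protein, was 1.77-fold higher at 24 h and 2.01-fold at 96 h.

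The remaining members were mostly surface, secreted or transport proteins. Timp3, an inhibitor of matrix metalloproteases, had 904/985 reads at 0 h, 1452/1331 at 24 h, 1687/1724 at 48 h and 2045/2067 at 96 h, and rose from 24 h to 48 h (0.29, SE 0.07, limma adjusted p = 0.00194). Fetub, a secreted protease inhibitor, was below its 0 h level at 24 h (337 and 354 reads, against 455 and 495), with 600/513 reads at 48 h and 913/1093 at 96 h. The microfibril protein Mfap5 likewise had 98.8/147 reads at 24 h, against 163/167 at 0 h, and reached 385/307 at 96 h. Klk10, a kallikrein-family secreted protein, rose by 0.71 from 24 h to 48 h (SE 0.17, limma adjusted p = 0.00173). Dmbx1, a homeobox transcriptional repressor active in the developing brain, rose by 0.92 over the same step (SE 0.15, limma adjusted p = 3.05e-05). Dmbx1 had 533/522 reads at 48 h and 224/274 at 96 h, a passing peak. The tight junction protein Cldn9, the transmembrane protease Tmprss13, the neuronal receptor component Lingo1, the chloride channel-like protein Ttyh2, the GDP-fucose transporter Slc35c1 and the ESCRT-I subunit Vps37d were 2.04-fold to 2.15-fold higher at 96 h. Capsl, Grrp1 and Prr15l, whose roles are less clear, were 2.19-fold, 2.13-fold and 2.54-fold higher.

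The members did not share 1 time course. Means were highest at 24 h in 7, at 48 h in 10 and at 96 h in 18 (51.4%), against 82.9% of the other rises with a peak at 96 h. At 24 h, 24 of the 35 were already at least 1.5-fold above 0 h, against 56.1% of the other rises and 7.92% of all genes above the floors. At 48 h it was 28 of 35, against 88.0% of the other rises and 14.2% of all. Thus 68.6% and 80% of the members were raised by then, and the other rises were raised early as well. Both comparisons share the 0 h libraries with the rule. Only Usp17la, Fetub and Mfap5 were below 0 h at 24 h. Between 48 h and 24 h, 14 of 35 members rose and 2 fell, with 20.2% of all 13652 genes tested rising and 18.8% falling. The members were picked as higher at 96 h, so all genes are a weak background for this count. The ratio of 48 h over 24 h had a median of 1.17 in the members and 1.39 in the other rises, and it reached 1.5 in 14.3% of the members and 36.0% of the other rises. Leaving out the 24 h library 1 or the 48 h library 1 left 10 members called.

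Unspliced RNA, read from introns, was also higher at 96 h in most members. Of 27 with a mean of at least 10 intron reads, 20 were at least 1.5-fold higher at 96 h, against 14.7% of all genes above the floors and of that intron level. In the other rises the share was 84.0%, and the median ratio was 2.02 in the members and 2.32 in the other rises. Intron reads of Birc7 were 52.0/38.4 at 0 h, 96.5/127 at 24 h, 176/173 at 48 h and 104/105 at 96 h, the course of its exons. Intron reads of Scd1 were 41.4/38.4 at 0 h, 79.0/74.8 at 24 h, 99.9/109 at 48 h and 87.3/58.6 at 96 h. Timp3 had the lowest intron ratio of the 27 at 96 h, 0.887. From 24 h to 48 h, 0 of 27 members were called in introns (4.77% of all genes rose and 4.42% fell), with 3 higher and 0 lower at an unadjusted p under 0.05. The test of exon minus intron change called 0 of 27 members and 0% of 11939 genes, with 2 members lower at an unadjusted p under 0.05.

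**Figure D3:**
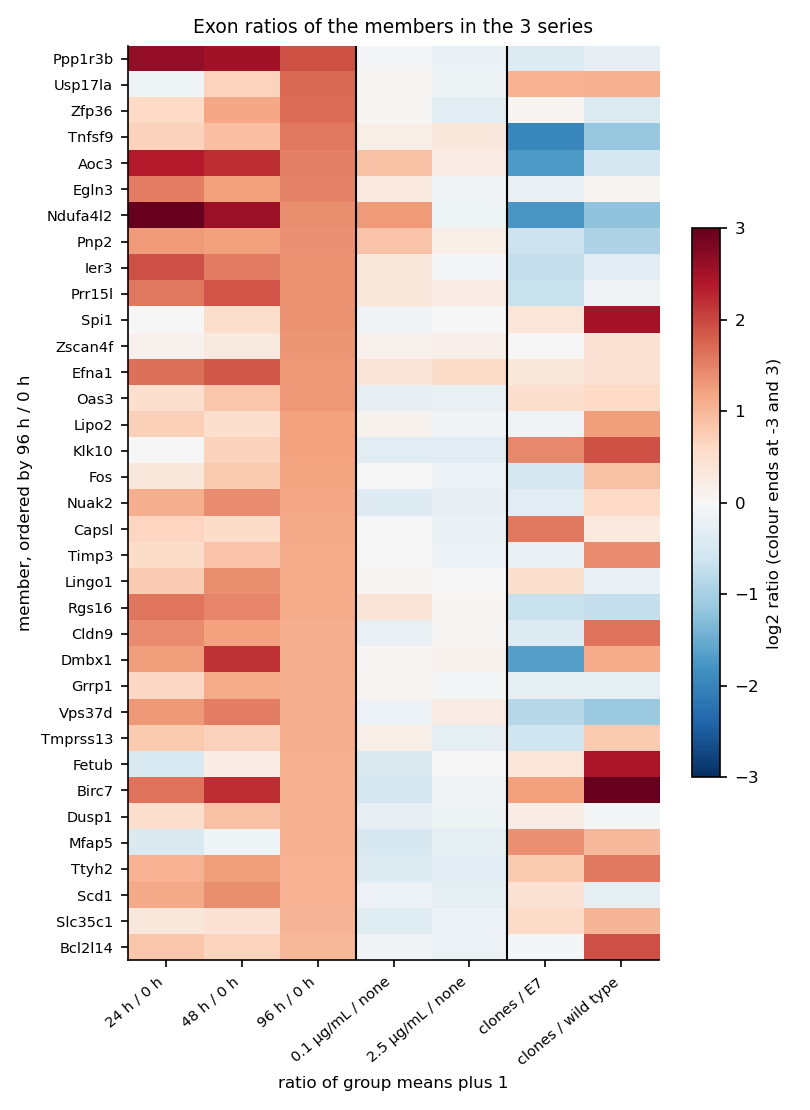
Log2 of the exon ratios of group means plus 1 for the 35 members (rows, ordered by 96 h over 0 h) in the time course, the rescue and the genetic series (columns separated by black lines); red is higher and blue lower in the first-named group. The 96 h column is red throughout by the choice of the genes, both rescue columns are pale, and the clone columns hold both colours, with Birc7 at a ratio of 11.6 over wild type.

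In exons most members differed little between dosed and undosed cells. With 0.1 µg/mL the ratio over no doxycycline had a median of 1.01, and 3 members reached 1.5, Ndufa4l2 (2.44), Aoc3 (1.84) and Pnp2 (1.81), against 5.53% of all genes above the floors. With 2.5 µg/mL the median was 0.924 by the choice of the genes. The ratio at 0.1 µg/mL has the same undosed denominator. In the members and in the other rises it is therefore fixed in part by that choice too. At 2.5 µg/mL both libraries lay above both undosed ones in 5 members, Tnfsf9, Aoc3, Efna1, Dmbx1 and Vps37d (42.4% of all genes), and below them in 13 (41.4%), Zfp36, Fos, Dusp1 and Scd1 among them; in the other 17 they overlapped. At 0.1 µg/mL, 6 members lay above (36.9% of all genes), 11 below (38.5%) and 18 overlapped. The other rises, by their definition lower at 2.5 µg/mL, had a median of 0.608 at 0.1 µg/mL. In introns, the ratio of 2.5 µg/mL over none had a median of 0.743 over 17 members with enough intron reads. Of the 17, 9 were at most 0.8. Of these 17, 5 (29.4%) were at least 1.5-fold lower, against 73.8% of 679 other rises, whose median was 0.488, and 17.2% of 10634 genes, whose median was 1.04. The rule held the members' exon ratio in these libraries at 0.8 or more and set no bound on introns. Intron ratios below the exon ratios are therefore favoured by the choice, and the intron values are a description.

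The level of undosed rescue cells was set beside the time course. The 2 tables were normalised apart, and the median gene had 0.711 times as many reads in undosed rescue cells as at 0 h and as at 96 h, so levels were centred on that median. On this scale undosed rescue cells had a median of 0.726 times the 96 h level over the members, with a range of 0.460 to 1.15, against 0.950 over the other rises. Relative to 0 h they had a median of 1.67 times over the members, against 2.54 times over the other rises. Both sets were chosen on the 96 h level, and the undosed level is the denominator of the ratio that split them, so a low undosed level favoured membership. These medians, and the counts that follow, are therefore fixed in part by the choice. The differences between the sets cannot be told apart from it.

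In 12 of 35 members (34.3%) the undosed rescue level was nearer to 0 h than to 96 h, against 11 of 797 other rises (1.38%). Without centring it was 30 of 35 (85.7%), against 229 (28.7%), so the count depends on the scale. Lingo1 was at 0.989 times its 0 h level and 0.460 times its 96 h level, and had 68.9/45.3 reads undosed. Dmbx1 was at 1.10 times its 0 h level, and Tnfsf9, Usp17la and Zscan4f were at 1.42, 1.54 and 1.56 times 0 h. Others stood closer to 96 h: Lipo2 was at 1.15, Mfap5 at 1.10, Bcl2l14 at 1.07, Capsl at 1.01 and Tmprss13 at 0.979 times the 96 h level. With 2.5 µg/mL the members had a median of 1.62 times the 0 h level and the other rises 1.02 times. The rescue cells came from 0.1 µg/mL and the time course from 2.5 µg/mL for 48 h, and that difference cannot be told apart from the series.

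**Figure D4:**
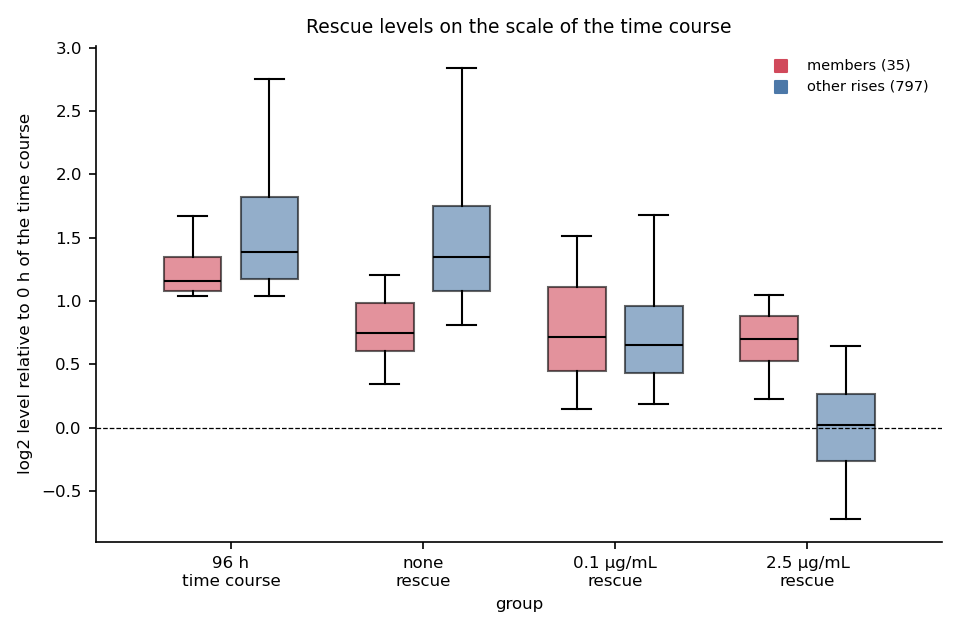
Log2 level relative to 0 h of the time course (y) at 96 h and in the 3 rescue groups (x), for the 35 members (red) and the 797 other rises (blue); boxes span the quartiles with the median, and whiskers the 5th to 95th percentile of genes. Rescue levels are centred on the median gene, and the first pair is the contrast that chose both sets. By the choice of the sets, in part, members lie in undosed rescue cells at a median of 1.67 times 0 h, against 2.54 for the other rises, and they are at 1.62 with 2.5 µg/mL.

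The genetic series played no part in the choice of the genes. Against E7, 0 of 35 members were called in the clones by limma (0.715% of all 13143 genes were higher and 0.791% lower), with 2 higher and 2 lower at an unadjusted p under 0.05 and a lowest adjusted p of 0.125. The median ratio of clones over E7 was 0.922 for the members, with a range of 0.259 to 2.98, and 1.89 for the other rises. Tnfsf9 had 27.5 and 13.3 reads in the clones and 96.1, 32.2 and 116 in E7 (log2 change -1.84, SE 0.62, limma adjusted p = 0.152). Capsl had 228 and 136 reads in the clones and 67.8, 85.1 and 28.1 in E7 (1.67, SE 0.52, limma adjusted p = 0.129). Groups did not overlap for either gene, but neither passed the test. Zfp36 had 967 and 658 reads in the clones and 498, 748 and 1085 in E7, and Egln3 had 1099 and 1052 in the clones and 547, 1384 and 1812 in E7; the clones lay within the range of E7. In introns 0 of 18 members were called against E7 (0.0174% of all genes higher, 0.113% lower), with 1 higher at an unadjusted p under 0.05.

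Against wild type, 5 of 35 members rose in the clones and 0 fell, with 10.9% of all genes rising and 7.72% falling. Birc7 had 119 and 221 reads in the clones, against 14.5 and 13.0 in wild type (log2 change 3.47, SE 0.58, limma adjusted p = 0.00337), and its introns were called too (3.40, SE 0.79, limma adjusted p = 0.0313; 2.83% of all genes rose and 1.19% fell in introns). Spi1 had 52.6 and 69.4 reads in the clones, against 8.94 and 11.1 in wild type (2.49, SE 0.60, limma adjusted p = 0.0177). Fetub had 463 and 730, against 92.7 and 124 (2.43, SE 0.61, limma adjusted p = 0.0201). Bcl2l14 and Slc35c1 rose by 1.93 and 1.03 on the log2 scale. Leaving out wild-type library 1, wild-type library 2 or clone library 2 left 2, 1 and 1 members called, Birc7 among them each time. The intron call of Birc7 was lost without wild-type library 2 or either clone library.

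E7 against wild type also called 2 members higher, Birc7 (2.29, SE 0.53, limma adjusted p = 0.0357) and Bcl2l14 (1.81, SE 0.43, limma adjusted p = 0.0387), with 3.1% of all genes rising and 1.46% falling; without either wild-type library, or without E7 library 2 or 3, no member was called. Birc7 had 54.6, 75.9 and 85.6 reads in E7. Spi1, Fetub and Slc35c1, not called in E7 against wild type, changed there by 2.12, 1.89 and 0.44 on the log2 scale. Against B9, the clones had 2 members higher, Fetub and Usp17la, and 2 lower, Tnfsf9 and Aoc3 (7.6% of all genes rose and 5.41% fell). Tnfsf9 had 27.5 and 13.3 reads in the clones, against 108 and 161 in B9 (-2.72, SE 0.68, limma adjusted p = 0.0265). Without B9 library 1 or clone library 2 no member was called in that comparison, without B9 library 2 it was 1 and without clone library 1 it was 2. B9 against wild type called 0 members (0.0152% of all genes higher, 0.0533% lower), with 8 higher at an unadjusted p under 0.05. Birc7, Bcl2l14, Spi1, Fetub and Slc35c1, called higher in the clones, changed in B9 by 2.04, 1.71, 1.09, 0.14 and 0.03 on the log2 scale. E7 against B9 called 0 members (0.0685% of all genes higher, 0% lower), with 3 higher at an unadjusted p under 0.05.

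Ndufa4l2 and Ier3 varied widely between libraries of 1 genotype. Ndufa4l2 had 55.9 and 72.0 reads in the clones, 30.3, 262 and 358 in E7, 138 and 579 in B9, and 35.2 and 261 in wild type. Ier3 had 420 and 655 in the clones, 368, 1065 and 1228 in E7, 533 and 2311 in B9, and 340 and 1030 in wild type. In E7, B9 and wild type these genes were lowest in the deepest library of the group, which is library 1; the part of depth or of the culture in these values was not tested.

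**Figure D5:**
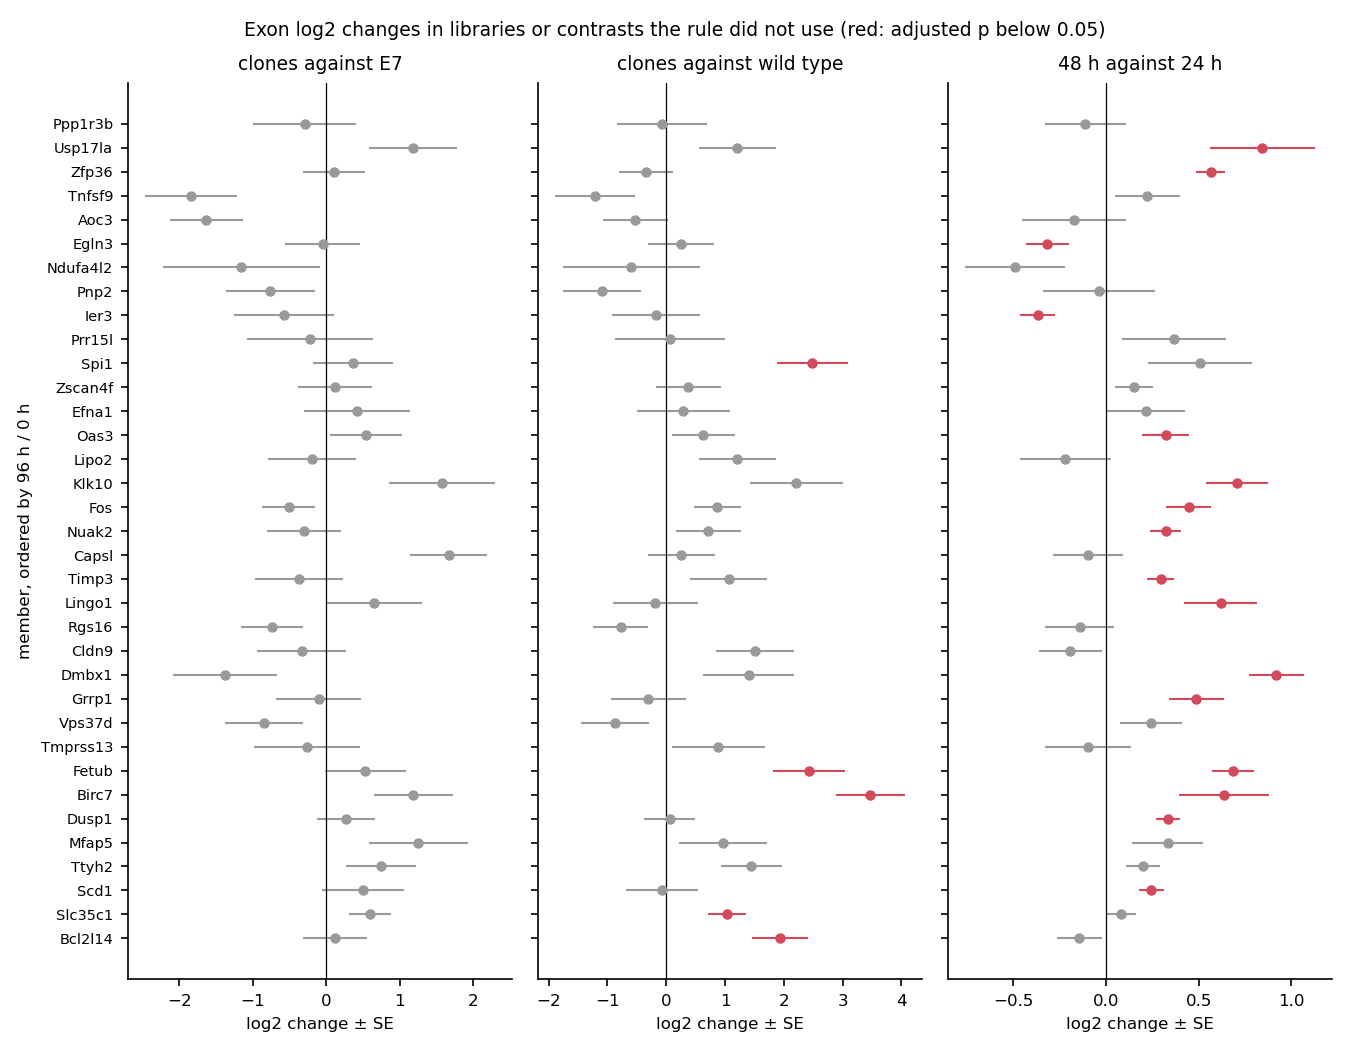
Log2 change with its standard error (x) of the 35 members (y, ordered by 96 h over 0 h) in exons of the clones against E7, of the clones against wild type and of 48 h against 24 h; red points have a limma adjusted p below 0.05. No point is red against E7, 5 are red against wild type, all to the right, and 16 are red at 48 h against 24 h. The 3 horizontal scales differ.

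Because the microRNA pathway acts through seed pairing, seed matches in the members' 3′ UTRs were counted. The microRNAs shown are of families known in ES cells, and their levels were not measured here. They are given as in RefSeq (GRCm38.p6), with the seed, bases 2 to 8, in capitals. The first 3 share the seed AAGUGCU and the last has AAAGUGC.
mmu-miR-294-3p: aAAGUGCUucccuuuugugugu
mmu-miR-291a-3p: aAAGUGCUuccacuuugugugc
mmu-miR-302d-3p: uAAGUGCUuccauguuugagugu
mmu-miR-17-5p: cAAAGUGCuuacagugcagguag
miR-294-3p lies at chr7:3220691-3220712 and miR-17-5p at chr14:115043684-115043706, both on the plus strand. A match to the first seed, AGCACTT, was in the longest annotated 3′ UTR of 3 of 35 members (8.57%), against 25.8% of 787 other rises with a UTR and 17.9% of 11259 genes above the floors. A match to the second, GCACTTT, was also in 3 of 35 (8.57%), against 23.9% and 14.9%. Either was in 5 of 35 members (14.3%), against 34.3% of the other rises and 24.4% of all. The members' UTRs were shorter, with a median of 859 bases, against 1378 and 1189, and per 1000 bases the first site occurred 0.0738 times, against 0.185 and 0.132. These are counts of letters, with no test.

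The sites of the members are printed with up to 11 bases on either side, the match in capitals.
Ier3: ctccgtcttccAGCACTTcaactctgtag
Dmbx1: actgcagcataAGCACTTagagaagccca
Bcl2l14: cttctgtggctAGCACTTtacccacagtg
Egln3: gcttcttattcGCACTTTatgtatgcgtc
Ppp1r3b: agaggggaaatGCACTTTaaaaaaaatca
Bcl2l14 carries both matches at 1 overlapping place, which starts at base 885 of a UTR of 997 bases. The Ier3 site starts at base 414 of 613, and the Egln3 site at base 292 of 1643. Ier3, Dmbx1, Bcl2l14, Egln3 and Ppp1r3b were 3.82-fold, 2.38-fold, 1.77-fold, 2.91-fold and 6.24-fold higher at 24 h. The median of all 35 members was 1.74. Ndufa4l2 and Aoc3, 8.32-fold and 5.24-fold higher at 24 h, held neither match. A link between the sites and these values was not tested. Of the other 30 members, among them Zfp36, Fos, Dusp1, Scd1 and Zscan4f, none held either match in its longest UTR.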

How the data were processed

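Strand-specific libraries of polyadenylated RNA were made by the submitters, per the labels' protocols. The submitters' processing notes name mm10, DESeq and TopHat2 2.0.12, and the annotation was not given in the sources used here. The 6 deposited tables hold signal over 18412 genes, 1 for exons and 1 for introns in every series; each column is the authors' mean of normalised reads of a group, per the file headers. The 35 members and the gene lists were chosen with earlier results of these data known. Members were named by rule for their ratios, level, gene lists, calls or nearness to a threshold; the rest of the 35, and Egln1, Jun, Fosb, Usp17lc and the other Zscan4 copies, were named after their values were seen.

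Library values were worked out from the means, each a sum of whole reads times 1 step per library: 404962 of 405064 values (99.975%) had a single solution, with a largest relative misfit of 5.77e-15. Of the 102 unsolved, 100 were in E7 exons; all 35 members were solved. This was checked on simulated data. Libraries are numbered by depth, as columns carry no replicate number. Log2 of normalised reads plus 1 was fitted with limma 3.58.1 (R 4.3.3, trended prior), in 1 fit per table, for genes with a mean of at least 10, with calls where p, adjusted by Benjamini and Hochberg over all genes tested, was below 0.05. Exon and intron libraries were matched by weak correlations. 3′ UTRs come from GENCODE M21. Motifs ACGTG and CArG and the seed matches were added after the data were seen.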

Additional observations from a re-analysis of the deposited data

How the results depend on the processing

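The number of members, 35, became 50 with floors of 20, 23 with floors of 100, 204 with a rise of 1.5, 3 with a rise of 3, and 58, 20 and 11 with a kept share of 0.7, 0.9 and 1; an added constant of 0 or 10 gave 35 and 32, and ratios divided by their median 34. Judged at 0.1 µg/mL it was 82, of which 29 were members. Leaving out 1 library gave 34 to 42 genes, and without 96 h library 2 only 26 of the 35 remained. Uncentred, 30 members in place of 12 were nearer to 0 h. Called members without 1 library ranged from 1 to 6 for clones against wild type (0 to 2 in introns), 0 to 2 against B9, 0 to 1 for E7 against wild type, and 10 to 13 (0 to 1 in introns) for 48 h against 24 h; for clones against E7, B9 against wild type and E7 against B9 they were 0 each time. A pseudocount of 5 gave 4 calls for E7 against wild type; without the filter on low values there were 0, with 1 for clones against B9 and 0 for clones against wild type in introns. The causes were not tested. No called member changed direction under any alternative run, refitted size factors, added after seeing the data, included. The TMM, edgeR and DESeq2 alternatives were not run. The tables hold group means, and only limma was used on the library reads worked out from them. No paired analysis was possible because the columns carry no replicate number. With 2 libraries in most groups, small differences among genotypes could not be detected, and an uncalled member is not shown to be unchanged.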
